A study of Mus musculus with 24 samples.

Results

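Glycolysis, the handling of pyruvate and the response to low oxygen were described in splenic regulatory T (Treg) cells through 39 genes, chosen by symbol for their known roles out of 17464 genes with values. They were 4 transporters of glucose or lactate, 17 glycolytic enzymes, 2 PFKFB enzymes, 8 genes of pyruvate entry into mitochondria, 5 genes of the hypoxia-inducible factor (HIF) and its regulators, and 3 HIF targets outside glycolysis. All 39 genes were listed and passed the filter on low values (10 or more normalized reads in 4 or more libraries), as did 16630 genes in all. Vegfa, the lowest of them, passed through 5 libraries, 4 of which were from resting Treg cells.

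The RNA came from spleens of wild-type C57BL/6JRccHsd mice, 4 young (2 months old) and 4 old (26 months old), with no other allele and no treatment named. By the series' design the 3 Treg subsets came from the same mice, and the replicate number that their libraries share was taken as the mouse. They were resting rTreg cells (CD62L+ CD44-), activated aTreg cells (CD62L- CD44+) and KLRG1+ kTreg cells, for which the labels name no CD62L or CD44 gate. This gave 24 libraries in 6 groups of 4, and the comparisons ask how the subsets differ and how each subset differs between the ages. Values are normalized reads, the reads counted on a gene divided by the size factor of the library.

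Glycolysis turns glucose into pyruvate in the cytosol. Pyruvate is then either reduced to lactate and exported, or carried into mitochondria and oxidized by the pyruvate dehydrogenase complex, which pyruvate dehydrogenase kinases switch off. HIF, a dimer of HIF-1α and ARNT, activates many glycolytic genes, and prolyl hydroxylases mark HIF-1α for destruction through VHL while oxygen is present.

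The libraries held between 15045747 and 29521942 reads on listed genes. Klrg1 followed the gate, with at least 16559 normalized reads in every kTreg library and at most 357 elsewhere. Young kTreg replicate 4 listed 4913 genes at 0, against 419 to 2756 in the others, and old aTreg replicate 2 had the lowest Foxp3 (5079 normalized reads, against 13151 to 37793). The 3 libraries of young mouse 2 carried B cell transcripts, with Cd79a from 2108 to 5242 normalized reads. Old rTreg libraries carried markers of other cells. Their 6 macrophage and monocyte markers summed to 10190 to 26400 normalized reads, against 578 to 8155 in young rTreg, 52.0 to 2846 in young aTreg, 0 to 19840 in young kTreg, 228 to 325 in old aTreg and 1931 to 2887 in old kTreg cells, with young mouse 2 the highest in each young subset. Their 4 basophil and mast cell markers summed to 2024 to 5589, against at most 802 in any other group. Their 4 natural killer cell markers summed to 1800 to 5906 and their 4 plasma cell markers to 8579 to 14250, against at most 1673 and 6841 elsewhere. Median sums of platelet, neutrophil and erythroid markers were 762, 3279 and 873, against at most 192, 293.5 and 694 in any other group, with overlapping ranges. B cell and CD8 T cell marker sums were not highest in old rTreg cells. The 28 proliferation genes summed to 74350 to 88700 in old and 30410 to 60790 in young rTreg cells, 31370 to 40450 in young and 34830 to 39970 in old aTreg cells, and 49720 to 88810 in young and 36630 to 44400 in old kTreg cells. None of the macrophage and monocyte or the basophil and mast cell markers was at 0 in all old rTreg libraries. The part of the markers of other cells and of the proliferation genes in the results was not tested. In bulk RNA, fewer cells of a type and less RNA per cell cannot be told apart.

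Per kilobase of the canonical transcript, Ldha was the highest of the 39 genes, at a mean of 19907 normalized reads per kilobase over the 24 libraries. It encodes the A subunit of lactate dehydrogenase, which reduces pyruvate to lactate. Next on this scale came Pkm (pyruvate kinase, 11902), Aldoa (aldolase A, 10032) and Eno1 (enolase 1, 6819). Among isozymes of one step, hexokinase Hk1 stood at 1194 and Hk2 at 7.26 per kilobase, and phosphofructokinase transcripts were mainly Pfkp (1168) and Pfkl (946), with Pfkm at 83.1. The glucose transporter gene Slc2a3 (GLUT3) was at 862 and Slc2a1 (GLUT1) at 342. Pdk3 (535) and Pdk1 (477) were ahead of Pdk2 (222) among the pyruvate dehydrogenase kinases. Ldha was the highest in all 6 groups, at group means of 15350 to 25575 per kilobase, but other places changed between groups. Aldoa (13540) exceeded Pkm (11392) in old aTreg cells, Eno1 (8077) exceeded Aldoa (7576) in young rTreg cells, and Pdk1 exceeded Pdk3 in young rTreg (755 and 514) and young aTreg cells (583 and 549.9). Reads on near-identical copies make 2 levels uncertain, since Eno1b held 9.56% to 12.0% of the reads on Eno1 and Eno1b, and the named Gapdh copies 7.06% to 10.9% of theirs.

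The 17 enzymes together took 0.536% to 0.870% of the reads of a library. The share was 0.622% ± 0.038 (SD, n = 4) in young rTreg, 0.642% ± 0.030 in young aTreg and 0.575% ± 0.042 in young kTreg cells. In old mice it was 0.764% ± 0.073, 0.7004% ± 0.052 and 0.609% ± 0.049. Every old rTreg library (from 0.710%) lay above every young rTreg library (up to 0.660%), and the ages overlapped in aTreg and kTreg cells.

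The subsets were compared over both ages with limma on log2(value + 1), and calls required a fold above 1.5 and an adjusted p (Benjamini-Hochberg) below 0.05. Against rTreg cells, kTreg cells had 3 of the 39 genes called higher (7.69%; Slc2a3, Hif1a and Egln3) and 4 called lower (10.3%; Eno1, Eno3, Pdk1 and Vegfa), beside 9.37% called higher and 6.09% called lower of all genes tested. Vegfa passed the filter through rTreg libraries, the group where it was higher, so its call is no support, and 3 lower genes remain without it. Against aTreg cells, 1 gene was higher in kTreg cells, Slc2a3, and none was lower, beside 4.13% and 3.26% of all genes. In aTreg against rTreg cells 1 gene was higher, Egln3, and none lower, beside 5.23% and 2.78%. The median log2 fold change of the 39 genes was -0.13, -0.08 and 0.03 in these comparisons, and over all genes it was -0.01, -0.08 and 0.06. Of the 28 proliferation genes 19 were called higher in kTreg than in aTreg cells (median 1.10) and 19 lower in aTreg than in rTreg cells (median -1.33). In kTreg against rTreg cells 0 were called (median -0.28, with 6 at an unadjusted p under 0.05 by limma). That comparison averages ages that differed, since 22 of the 28 were called in its interaction with age (median -2.25). They summed to 30410 to 60790 in young rTreg and 49720 to 88810 in young kTreg cells. In old mice they summed to 74350 to 88700 in rTreg and 36630 to 44400 in kTreg cells. The part of these genes in the subset differences was not tested.

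Single libraries moved the 2 small counts. For kTreg against aTreg the count was 2 without young aTreg replicate 3 or young kTreg replicate 1 (Pdk1 added), young kTreg replicate 4 (Eno3) or old rTreg replicate 3 (Egln3), and 3 without young kTreg replicate 2 (Pdk1 and Eno3). For aTreg against rTreg it was 2 without young aTreg replicate 2, young kTreg replicate 1 or old rTreg replicate 2 (Vegfa added) or old aTreg replicate 2 (Hif1a), 3 without young kTreg replicate 4 (Vegfa and Eno3), and 0 without young mouse 3. With the mouse as a block it was 2, with Vegfa added.

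**Figure D1:**
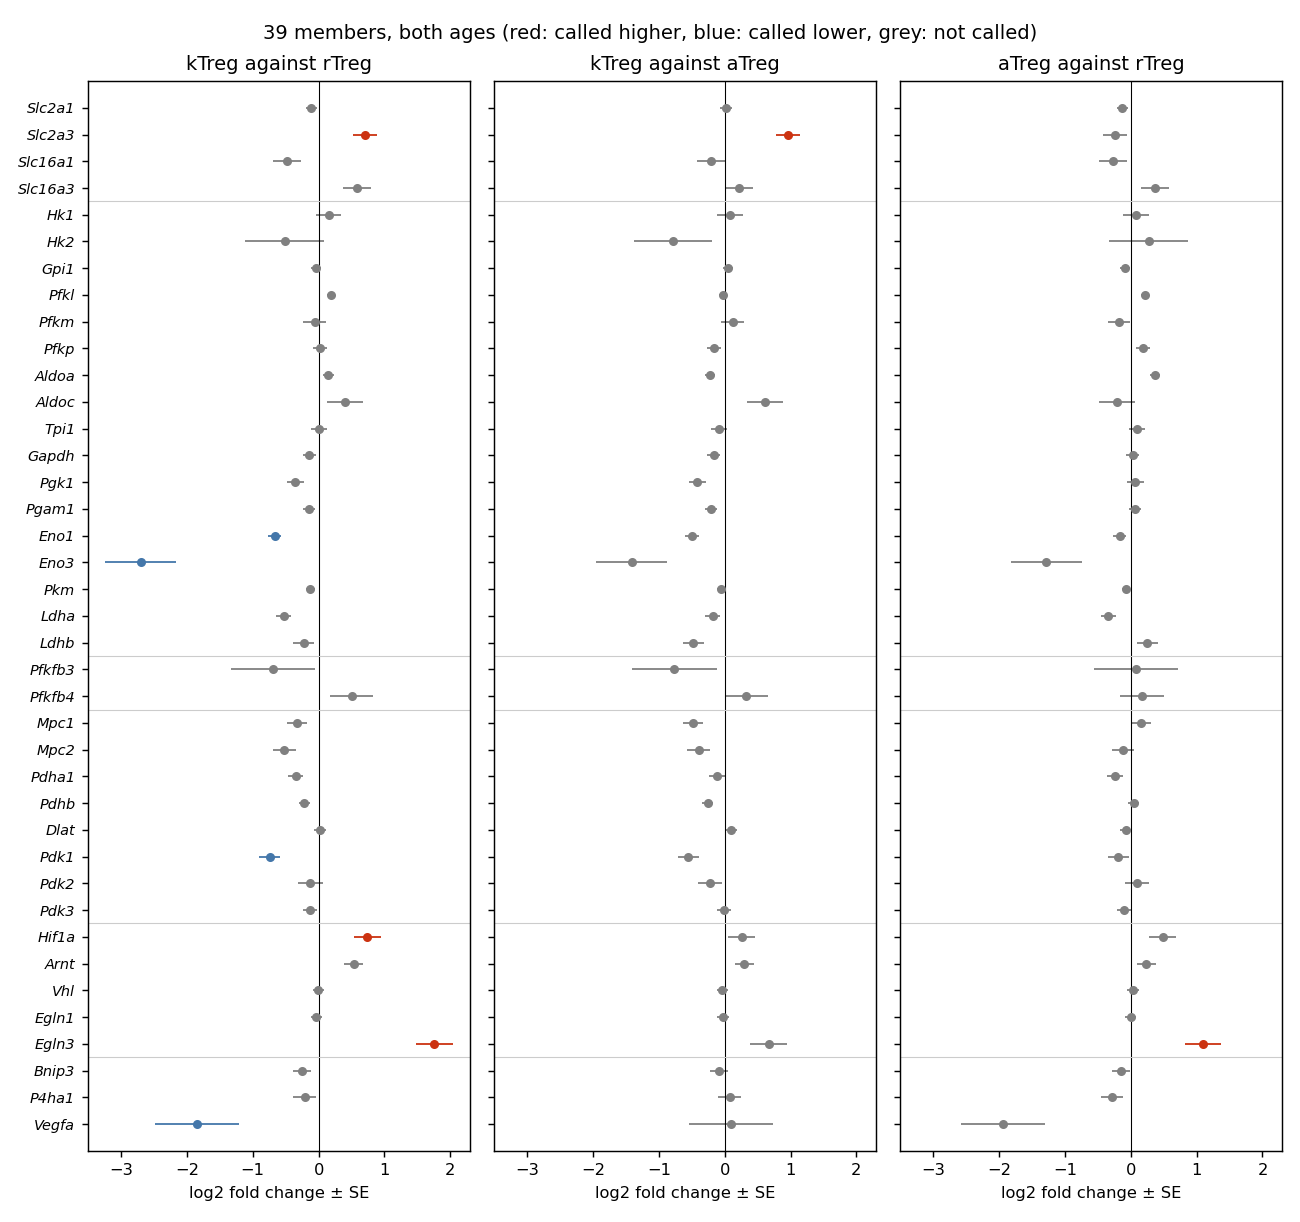
Log2 fold change with its standard error (x axis) of the 39 genes (y axis, by role) in kTreg against rTreg, kTreg against aTreg and aTreg against rTreg cells, from 24 libraries. Called genes number 7, 1 and 1 in the panels, and Slc2a3 lies above 0 in both kTreg panels.

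Among the transporters, Slc2a3 separated kTreg cells from both other subsets. It encodes GLUT3, a glucose transporter of high affinity. Its values were 4530, 4766, 4680 and 4267 normalized reads in young and 4612, 4880, 5149 and 4910 in old kTreg cells. In aTreg cells they were 2415, 2429, 2814 and 3041 in young and 2552, 1012, 3138 and 3030 in old mice. In rTreg cells they were 2186, 3105, 2228 and 3619 in young and 2939, 2748, 2384 and 4497 in old mice. Every kTreg library lay above every aTreg library, whereas old rTreg replicate 4 exceeded the lowest kTreg library. The log2 fold change was 0.95 ± 0.18 (SE; limma adjusted p = 0.00125) against aTreg and 0.71 ± 0.18 (limma adjusted p = 0.00639) against rTreg cells, higher in 8 of 8 mice in both. Without old aTreg replicate 2, which had the lowest value, the first was 0.76 ± 0.12.

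Slc2a1, which encodes GLUT1, stayed between 1121 and 1822 normalized reads in all libraries, with log2 fold changes from -0.13 to 0.02 among the subsets and no call. Slc16a3 encodes the lactate exporter MCT4. It had 239 ± 103 normalized reads in young rTreg, 348 ± 108 in young aTreg and 446 ± 162 in young kTreg cells, and 483 ± 123, 530 ± 66.5 and 581 ± 106 in old mice (SD, n = 4 each). In kTreg against rTreg cells it passed the adjusted p but not the fold (0.58 ± 0.21, limma adjusted p = 0.0498). Slc16a1, which encodes the monocarboxylate carrier MCT1, had -0.48 ± 0.21 there and was not called.

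**Figure D2:**
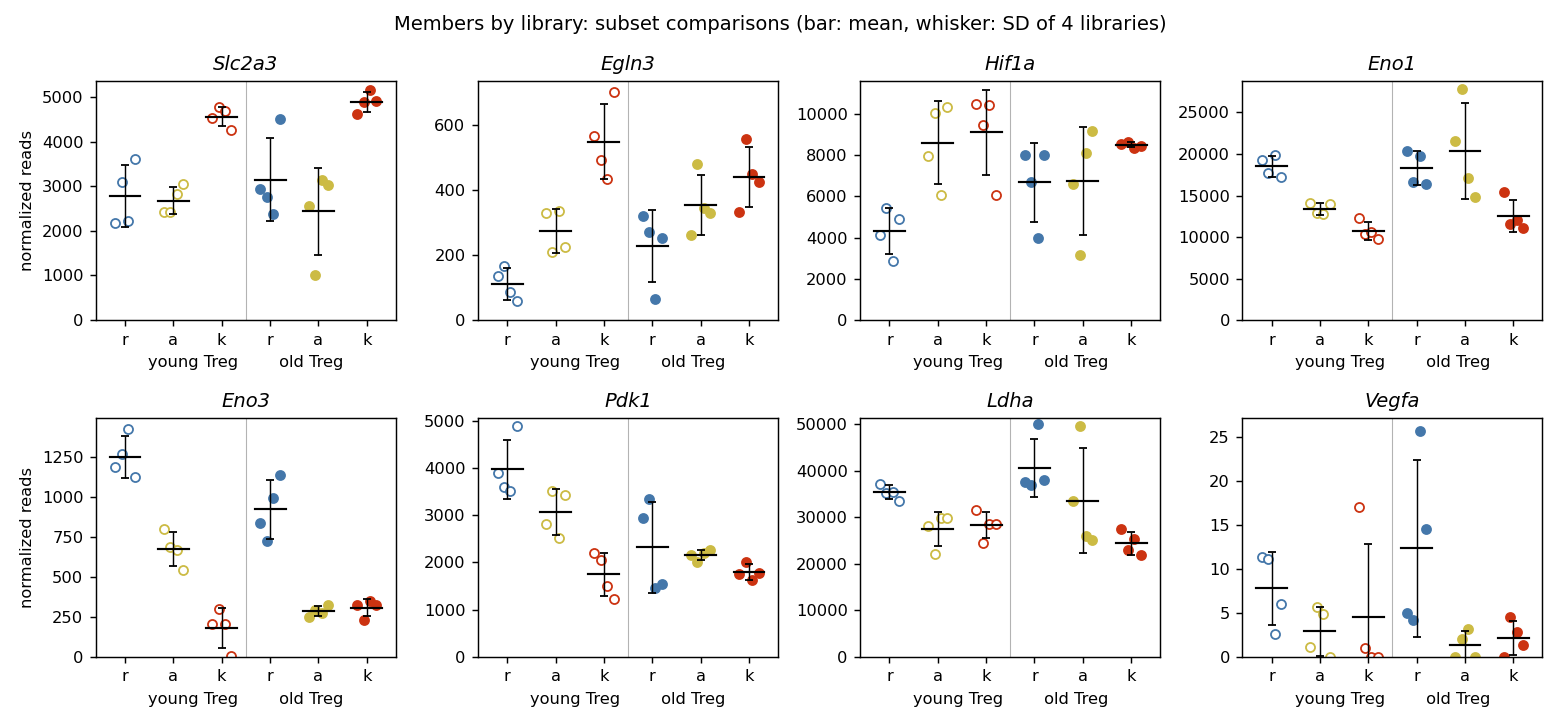
Normalized reads (y axis) of 8 genes in each library by age and subset (x axis), with open points for young and filled points for old mice, bars for means and whiskers for the SD of 4 libraries. Slc2a3 is higher in every kTreg than in every aTreg library, and Eno1, Eno3 and Ldha are lower in every kTreg than in every rTreg library.

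Of the 17 glycolytic enzymes, the 2 called between subsets were both enolases, which make phosphoenolpyruvate. Eno1, the enolase of most tissues, had 19230, 17743, 19911 and 17199 normalized reads in young and 20340, 16623, 19718 and 16380 in old rTreg cells. In kTreg cells it had 12346, 10342, 10549 and 9821 in young and 15393, 11603, 12043 and 11046 in old mice. The groups did not overlap, and the log2 fold change was -0.67 ± 0.10 (limma adjusted p = 4.2e-05). In aTreg cells Eno1 had 14092, 12878, 12738 and 13925 in young and 21536, 27871, 17165 and 14790 in old mice. Against these, kTreg cells had -0.50 ± 0.10, lower in 8 of 8 mice, which passed the adjusted p (limma, 0.00233) but not the fold.

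Eno3, the enolase known from muscle, showed the largest difference of the 39 genes between kTreg and rTreg cells. It had 1186, 1266, 1424 and 1124 normalized reads in young rTreg, 802, 690, 667 and 543 in young aTreg and 205, 300, 206 and 3.66 in young kTreg cells. In old mice it had 835, 721, 993 and 1139 in rTreg, 250, 291, 273 and 324 in aTreg and 322, 230, 351 and 326 in kTreg cells. The young subsets did not overlap, and in old mice aTreg and kTreg cells overlapped with each other but not with rTreg cells. The log2 fold change of kTreg against rTreg cells was -2.70 ± 0.54 (limma adjusted p = 0.000776), lower in 8 of 8 mice. Without young kTreg replicate 4, the library with the most genes at 0, it was -1.99 ± 0.13. Against aTreg cells it was -1.42 ± 0.54 and was not called. With that library and old aTreg replicate 2 left out, an alternative chosen after seeing the data, limma called Eno3 lower in kTreg than in aTreg cells (-0.70 ± 0.14, adjusted p = 0.00144) and lower in aTreg than in rTreg cells (-1.29 ± 0.13). The first is an average over ages that differed, since that fit also called the interaction of age with kTreg against aTreg (1.63 ± 0.27, limma adjusted p = 0.0188). Leaving out young kTreg replicate 4 alone, limma made the same calls (-0.71 ± 0.13, -1.29 ± 0.13 and 1.61 ± 0.26). With all libraries, edgeR and DESeq2 called Eno3 lower in aTreg than in rTreg cells (-1.29 by each), and neither called it in kTreg against aTreg cells. In old mice the means of all libraries were 285 normalized reads in aTreg and 307 in kTreg cells.

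Ldha had 33539 to 37219 normalized reads in young and 36883 to 49950 in old rTreg cells, and 24535 to 31548 in young and 21897 to 27391 in old kTreg cells. In aTreg cells it had 22102 to 29864 in young mice, also all below the young rTreg libraries. Old aTreg libraries had 25154 to 49588 (median 29732) and overlapped with old rTreg libraries (median 37809). The kTreg libraries were all below the rTreg libraries, and the log2 fold change of -0.53 ± 0.11 passed the adjusted p (limma, 0.00148) but not the fold. Pfkl, the liver-type phosphofructokinase, was on the other side of 0 with 0.19 ± 0.06 in kTreg and 0.21 ± 0.06 in aTreg against rTreg cells, both past the adjusted p alone. Aldoa had 0.37 ± 0.08 in aTreg against rTreg cells (limma adjusted p = 0.00262), and Pgk1 (phosphoglycerate kinase) and Ldhb (lactate dehydrogenase B) had -0.42 ± 0.13 and -0.48 ± 0.16 in kTreg against aTreg cells, also past the adjusted p alone. By adjusted p alone, 13 of the 39 genes passed in kTreg against rTreg, 6 in kTreg against aTreg and 3 in aTreg against rTreg cells, beside 22.8%, 12.1% and 10.5% of all genes. The other 10 enzymes (Hk1, Hk2, Gpi1, Pfkm, Pfkp, Aldoc, Tpi1, Gapdh, Pgam1 and Pkm) were not called and did not pass the adjusted p between subsets over both ages, with log2 fold changes from -0.79 (Hk2) to 0.62 (Aldoc). Hk2 was low in all groups, at means of 43.6 to 79.4 normalized reads, and had 1.83 in young kTreg replicate 4, against a group mean of 47.4. Pfkfb3 and Pfkfb4, whose enzymes set the level of the activator fructose 2,6-bisphosphate, had -0.77 to 0.50 with standard errors of 0.33 to 0.64 and were not called. Pfkfb3 had 3.66 normalized reads in young kTreg replicate 4, against a group mean of 320.

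At the entry to mitochondria, Pdk1 was called. It encodes a kinase that inactivates pyruvate dehydrogenase and is a known HIF target. Its values were 3887, 3607, 3509 and 4887 normalized reads in young rTreg, 2808, 3519, 2530 and 3430 in young aTreg and 2210, 2060, 1493 and 1228 in young kTreg cells. In old mice they were 2936, 3341, 1458 and 1543 in rTreg, 2161, 2007, 2194 and 2271 in aTreg and 1766, 2016, 1627 and 1783 in kTreg cells. Young kTreg libraries were below all young rTreg and aTreg libraries, and the old rTreg libraries were spread around the old kTreg values. The log2 fold change over both ages was -0.74 ± 0.16 for kTreg against rTreg cells (limma adjusted p = 0.00134), lower in 6 of 8 mice, with -1.21 ± 0.22 in young and -0.27 ± 0.22 in old mice. The difference between the ages was not called (0.94 ± 0.32, limma adjusted p = 0.113). Against aTreg cells Pdk1 had -0.55 ± 0.16, past the adjusted p alone.

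The 2 subunits of the mitochondrial pyruvate carrier, Mpc1 and Mpc2, did not pass the fold. Mpc1 had -0.48 ± 0.15 in kTreg against aTreg cells, lower in 8 of 8 mice, and Mpc2 had -0.52 ± 0.17 against rTreg cells, lower in 8 of 8 mice, both past the adjusted p. The Mpc1 means were 1088 normalized reads in young aTreg and 971 in young kTreg cells. In old mice they were 1765 ± 768 (SD, n = 4) in aTreg cells, with 2873 in the highest library, and 949 ± 91.6 in kTreg cells. Pdha1, a subunit of pyruvate dehydrogenase, had -0.35 ± 0.12 against rTreg cells, also past the adjusted p and lower in 8 of 8 mice. Pdhb and Dlat, further subunits of the complex, and the kinases Pdk2 and Pdk3 passed neither the fold nor the adjusted p, with log2 fold changes from -0.26 to 0.10.

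In the HIF system, Egln3 and Hif1a were higher in kTreg than in rTreg cells, while Vhl and Egln1 were near 0 in all subset comparisons. Promoter sequences are shown for Egln3, Hif1a and Pdk1, which are only some of the called genes, because HIF binds DNA at the core ACGTG. They are the 250 bases before the start of the canonical transcript in GRCm39 (GENCODE M39), 5′ to 3′ on the strand of the gene, at chr12:54250674-54250923 (minus strand) for Egln3, chr12:73954320-73954569 (plus strand) for Hif1a and chr2:71703238-71703487 (plus strand) for Pdk1. Capitals mark ACGTG or its reverse complement CACGT.
Egln3: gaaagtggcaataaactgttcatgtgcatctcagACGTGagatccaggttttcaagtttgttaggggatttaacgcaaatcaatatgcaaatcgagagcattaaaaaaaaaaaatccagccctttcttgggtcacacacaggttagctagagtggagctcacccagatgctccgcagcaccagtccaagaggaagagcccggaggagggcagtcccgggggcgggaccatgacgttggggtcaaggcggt
Hif1a: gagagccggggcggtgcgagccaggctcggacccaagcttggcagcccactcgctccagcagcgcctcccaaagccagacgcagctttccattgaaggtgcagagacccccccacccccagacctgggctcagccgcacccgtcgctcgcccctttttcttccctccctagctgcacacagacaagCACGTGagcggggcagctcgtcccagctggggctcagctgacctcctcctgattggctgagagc
Pdk1: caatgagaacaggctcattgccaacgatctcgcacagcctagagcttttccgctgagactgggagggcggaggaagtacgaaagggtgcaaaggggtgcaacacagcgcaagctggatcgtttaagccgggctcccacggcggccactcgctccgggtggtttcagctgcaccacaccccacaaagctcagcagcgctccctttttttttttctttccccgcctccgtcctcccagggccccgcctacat
Egln3 held 1 match, 216 bases before the start. Hif1a held 2 overlapping matches at 64 and 63 bases, which together spell the E-box CACGTG, and Pdk1 held none. Of the other genes called between subsets, Eno3 held 2 overlapping matches, and Slc2a3, Eno1 and Vegfa held none. A match on either strand was present in 16 of the 39 genes (41%) and in 17% of the 21770 coding genes with such a window, and CACGTG in 6.26% of the latter. The 39 genes were chosen in part as HIF targets, and the coding genes were taken whether expressed here or not. Among the 16, the windows of Aldoa and Eno3 lay wholly in exons of their own transcripts, and some others in part. A match is a description of letters and not a binding site.

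Egln3 encodes the prolyl hydroxylase PHD3 and is itself a known HIF target. It had 136, 167, 87.0 and 57.2 normalized reads in young rTreg, 331, 209, 337 and 223 in young aTreg and 566, 492, 434 and 703 in young kTreg cells. In old mice it had 320, 272, 65.9 and 252 in rTreg, 262, 479, 346 and 328 in aTreg and 332, 558, 448 and 424 in kTreg cells. Every kTreg library lay above every rTreg library, and aTreg libraries overlapped with both. The log2 fold change was 1.76 ± 0.28 for kTreg against rTreg (limma adjusted p = 6.5e-05; higher in 8 of 8 mice) and 1.10 ± 0.28 for aTreg against rTreg cells (limma adjusted p = 0.0117; 7 of 8 mice). For kTreg against aTreg cells it was 0.67 ± 0.28, higher in 8 of 8 mice and not called.

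Hif1a, which encodes the oxygen-regulated subunit, had 4123, 5414, 2873 and 4878 normalized reads in young rTreg, 7967, 10043, 6042 and 10335 in young aTreg and 10480, 9435, 10402 and 6067 in young kTreg cells. In old mice it had 8014, 6690, 3983 and 8002 in rTreg, 6619, 3161, 8097 and 9168 in aTreg and 8555, 8624, 8330 and 8458 in kTreg cells. In young mice rTreg cells were below both other subsets without overlap. In old mice all kTreg libraries were above the rTreg libraries by a small margin, and aTreg libraries were on both sides. The log2 fold change of kTreg against rTreg cells was 0.74 ± 0.20 (limma adjusted p = 0.00956), higher in 8 of 8 mice, with 1.08 ± 0.28 in young and 0.40 ± 0.28 in old mice. The call was kept under 45 of 46 alternatives and lost without young mouse 3 (limma adjusted p = 0.0501). For aTreg against rTreg cells it was 0.48 ± 0.20 and was not called, but without young kTreg replicate 4 and old aTreg replicate 2 it was called at 0.65 ± 0.15. Arnt, the partner of HIF-1α, had 0.53 ± 0.15 in kTreg against rTreg cells, past the adjusted p alone (limma, 0.0105).

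Of the HIF targets outside glycolysis, Vegfa (a growth factor of blood vessels) was called lower in kTreg than in rTreg cells from very few reads. It had 2.64 to 11.3 normalized reads in young and 4.16 to 25.7 in old rTreg cells, and 17.0, 0.956, 0 and 0 in young and 0 to 4.51 in old kTreg cells. The groups overlapped, the log2 fold change was -1.85 ± 0.64 (limma adjusted p = 0.0411), and edgeR and DESeq2 did not call it (adjusted p = 0.22 and 0.234). The call was kept under 25 of 45 alternatives. Bnip3 (mitophagy) and P4ha1 (collagen prolyl hydroxylation) were not called, with log2 fold changes from -0.29 to 0.07.

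Ratios of 2 isozymes or related proteins within a library do not depend on its scaling. For 12 pairs, the log2 ratio was compared between subsets of the same mouse with an exact two-sided sign-flip permutation test, 36 tests in all. The smallest p that 8 mice allow is 0.00781, and 9 tests reached it (adjusted p = 0.0312 each), with all 8 mice on the same side. These ratios come from the libraries of the gene fits and are no separate support for them.

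Slc2a3 over Slc2a1 was higher in kTreg than in aTreg cells by 0.93 ± 0.52 and than in rTreg cells by 0.82 ± 0.34 (log2, mean and SD over 8 mice). The median ratio was 3.37 in young and 3.09 in old kTreg cells, against 1.58 to 1.89 in the other groups. Slc16a3 over Slc16a1 was higher by 1.06 ± 0.47 in kTreg and by 0.64 ± 0.35 in aTreg than in rTreg cells. Its median was 0.191, 0.262 and 0.435 in young rTreg, aTreg and kTreg cells and 0.456, 0.845 and 0.844 in the old ones. Eno3 over Eno1 was lower by 2.03 ± 2.09 in kTreg and by 1.11 ± 0.76 in aTreg than in rTreg cells. Young mouse 4, whose kTreg library had the most genes at 0, was the lowest of the first, and without it the difference was -1.31 ± 0.42. Egln3 over Egln1, which encode PHD3 and PHD2, was higher in kTreg cells by 0.69 ± 0.55 against aTreg and 1.79 ± 1.17 against rTreg cells. Mpc2 over Mpc1 was lower by 0.27 ± 0.15 in aTreg than in rTreg cells.

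**Figure D3:**
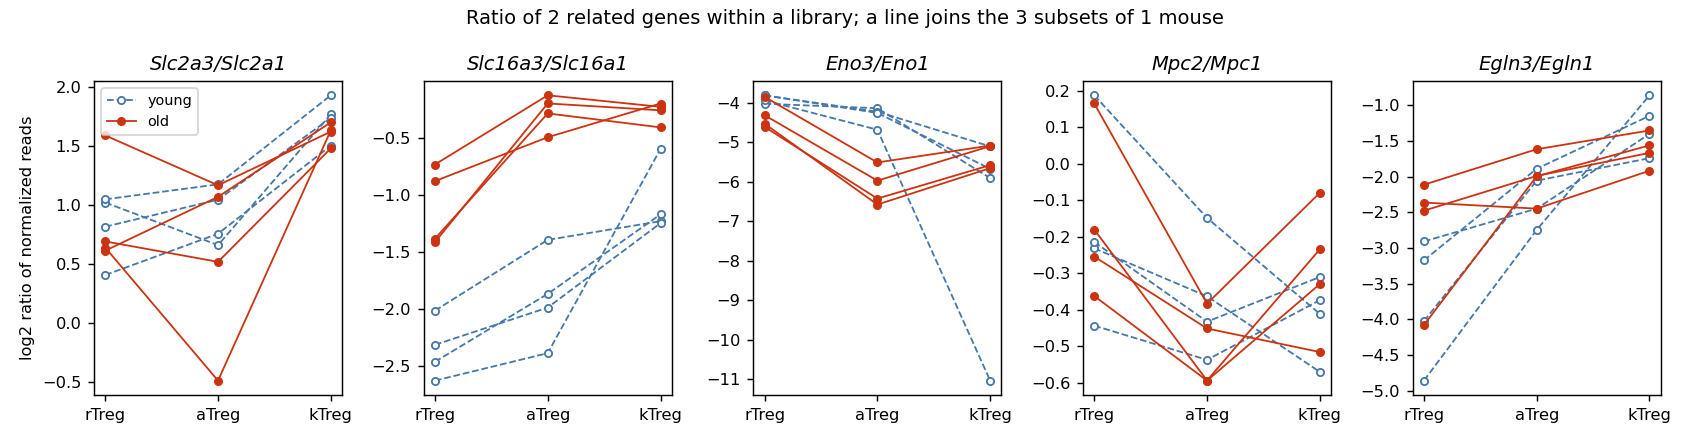
Log2 ratio of normalized reads (y axis) of the 5 isozyme pairs with a difference past the threshold, by subset (x axis), with a line for each of the 8 mice, dashed blue for young and solid red for old. The Slc2a3/Slc2a1 lines rise to kTreg cells in all 8 mice, and the Eno3/Eno1 value of young kTreg replicate 4 lies far below the rest.

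Age was compared within each subset. In rTreg cells, 1 of the 39 genes was called higher in old mice (2.56%; Slc16a3) and 1 lower (Pdk1), beside 4.12% and 1.71% of all genes. In aTreg cells limma called 0 of 39 genes (7 at an unadjusted p under 0.05), edgeR called 1 (Eno1) and DESeq2 called 3 (Eno1, Mpc1 and Slc16a1), beside 1.85% of all genes called higher and 0.86% lower by limma. In kTreg cells limma, edgeR and DESeq2 called 0 of 39 (7 with limma at an unadjusted p under 0.05), beside 1.02% higher and 0.235% lower. The count in rTreg cells was 1 without young rTreg replicate 3 and 0 without young rTreg replicate 4 or old rTreg replicate 4. It was 3 without young rTreg replicate 2 (Tpi1 added), old rTreg replicate 1 (Pkm added) or old rTreg replicate 3 (Egln3 and Ldhb in place of Pdk1). In aTreg cells it was 1 (Eno1) without old aTreg replicate 3 or 4 and 2 (Eno3 and Slc16a1) without young kTreg replicate 4, and in kTreg cells it was 1 (Slc16a1) without that library.

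In rTreg cells, Pdk1 fell from 3509 to 4887 normalized reads in young to 1458 to 3341 in old mice, without overlap (-0.86 ± 0.22, limma adjusted p = 0.0209). The call was lost without young rTreg replicate 4, old rTreg replicate 3 or old rTreg replicate 4, the adjusted p reaching 0.138 over all alternatives. Slc16a3 had 211, 390, 158 and 199 normalized reads in young and 360, 467, 450 and 653 in old rTreg cells, with an overlap of 1 library (1.06 ± 0.30, limma adjusted p = 0.0342). It was lost in 12 of 45 alternatives, edgeR among them (adjusted p = 0.0528), and without young rTreg replicate 1, 3 or 4 or old rTreg replicate 2 or 4. Old rTreg libraries are those with the markers of other cells given above, and 20 of the 28 proliferation genes were called higher in them (median 1.31). In kTreg cells 2 were called lower with age, with 27 of 28 below 0 (median -0.86) and 18 at an unadjusted p under 0.05 by limma. In aTreg cells 0 were called (median 0.12, with 1 at an unadjusted p under 0.05 by limma). Their part in these differences was not tested.

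**Figure D4:**
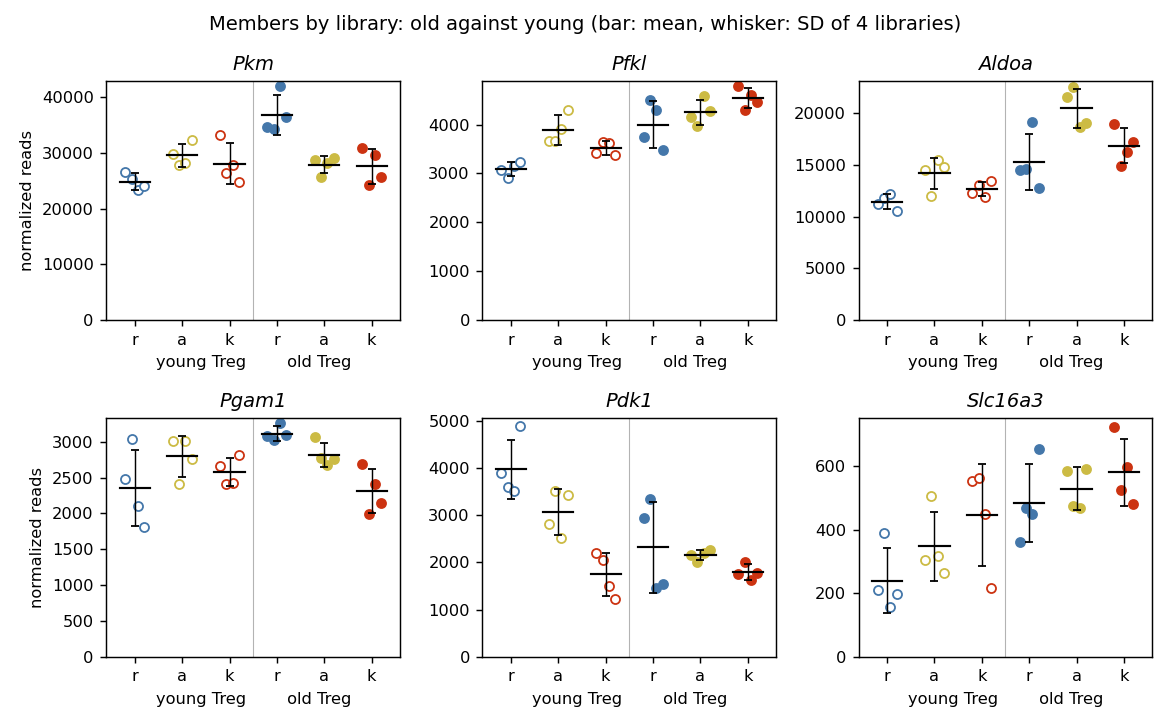
Normalized reads (y axis) of Pkm, Pfkl, Aldoa, Pgam1, Pdk1 and Slc16a3 in each library by age and subset (x axis), with bars for means and whiskers for the SD of 4 libraries. Pkm is higher in all old than in all young rTreg libraries, and Aldoa is higher in all old than in all young aTreg libraries.

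Of the 17 glycolytic enzymes, 14 had a positive log2 fold change with age in rTreg cells, with a median of 0.36, beside a median of -0.08 over all genes, of which 43.7% were above 0. None passed the fold, and 4 passed the adjusted p alone. Pkm had 26631, 25403, 23320 and 24098 normalized reads in young and 34560, 34226, 41966 and 36505 in old rTreg cells, without overlap (0.56 ± 0.10, limma adjusted p = 0.000758). Pfkl and Aldoa had 0.36 ± 0.09 and 0.40 ± 0.11, also without overlap, and Pgam1 (phosphoglycerate mutase) had 0.43 ± 0.13 with an overlap. In aTreg cells the enzyme median was 0.04, and Aldoa (0.53 ± 0.11, limma adjusted p = 0.00746) and Eno1 (0.56 ± 0.14, limma adjusted p = 0.0321) passed the adjusted p alone, with no overlap between the ages. In kTreg cells the enzyme median was 0.22, beside 0.12 over all genes, and Pfkl passed the adjusted p alone (0.37 ± 0.09, limma adjusted p = 0.0327). By adjusted p alone 6 of the 39 genes passed in rTreg, 2 in aTreg and 1 in kTreg cells, beside 6.7%, 3.05% and 1.32% of all genes. Slc16a1 had 1118 to 1380 normalized reads in young and 579 to 670 in old aTreg cells, without overlap, and was not called (-0.99 ± 0.30, limma adjusted p = 0.0837).

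**Figure D5:**
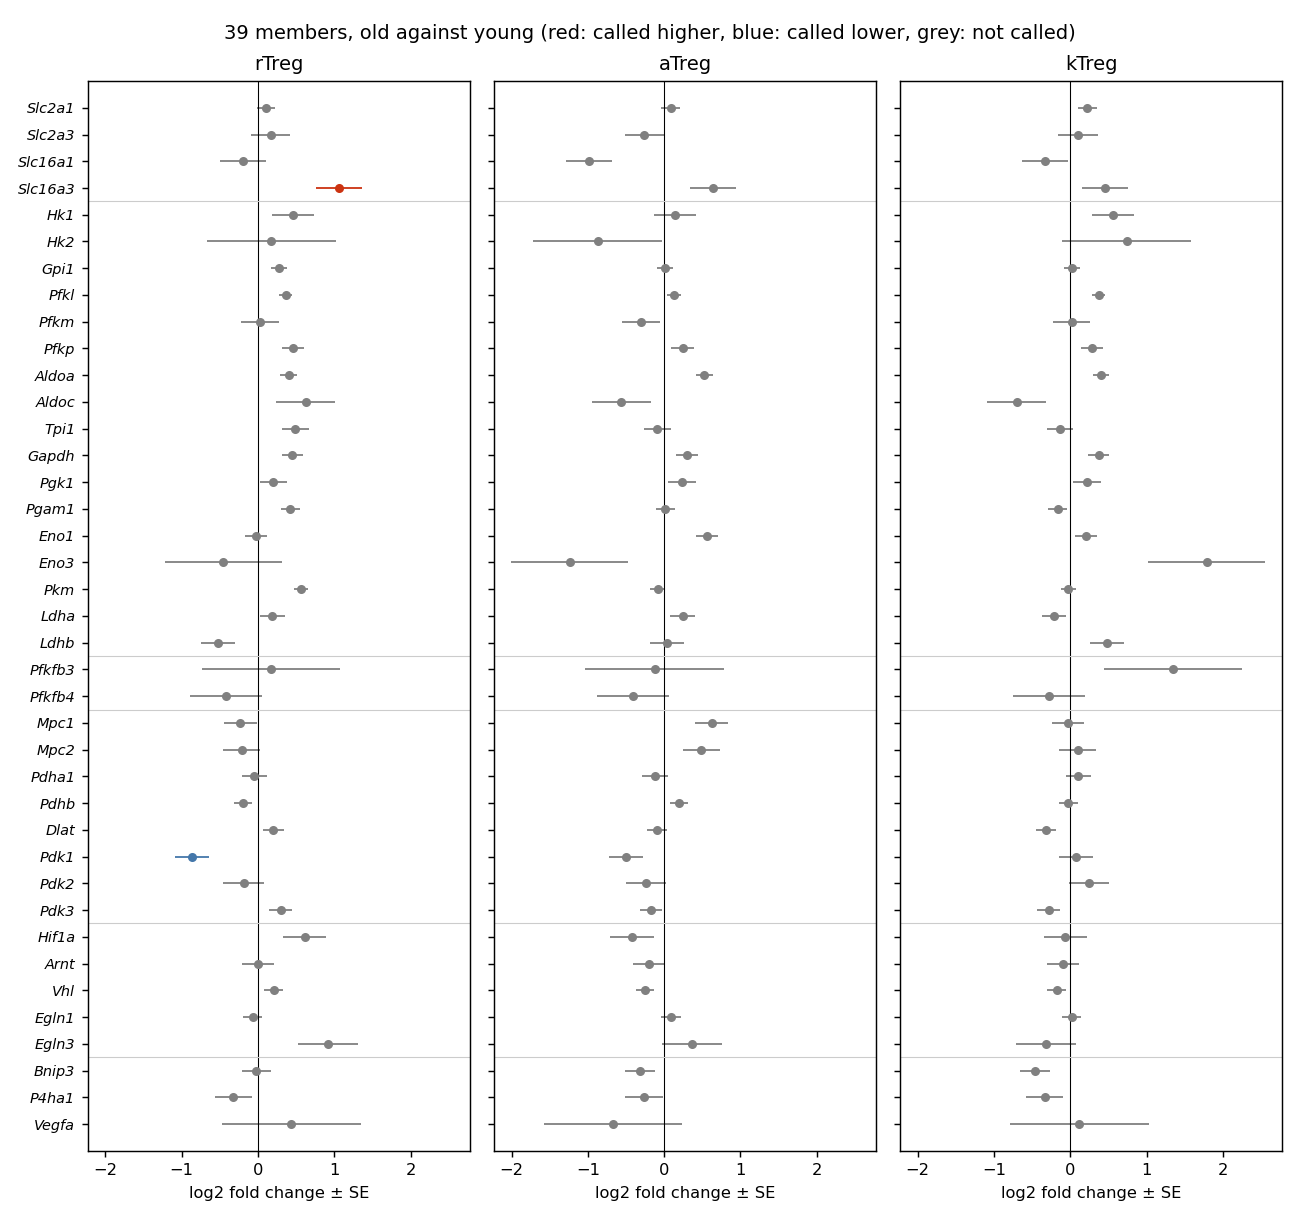
Log2 fold change of old against young mice with its standard error (x axis) of the 39 genes (y axis, by role) in rTreg, aTreg and kTreg cells. In rTreg cells 14 of the 17 glycolytic enzymes lie above 0, and the 2 called genes are Slc16a3 and Pdk1.

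A test of the interaction asked whether a subset difference changed with age. Pkm was called in 2 of the 3 interactions and no other of the 39 genes in any, beside 3.02% of all genes for kTreg against rTreg, 1.56% for aTreg against rTreg and 0.156% for kTreg against aTreg cells. For the last, limma, edgeR and DESeq2 called 0 of 39, with 2, 3 and 4 at an unadjusted p under 0.05. Pkm had 24750 to 33264 normalized reads in young and 24192 to 30856 in old kTreg cells, 27881 to 32330 in young and 25663 to 29015 in old aTreg cells, and the rTreg values given above. Its log2 fold change of kTreg against rTreg cells was 0.17 in young and -0.42 in old mice (difference -0.59 ± 0.14, limma adjusted p = 0.0185), and that of aTreg against rTreg cells was 0.25 and -0.40 (difference -0.65 ± 0.14, limma adjusted p = 0.0198). Both rest on the same rTreg libraries. Without young rTreg replicate 3 neither was called. The first was lost in 14 of 46 alternatives, among them only the groups compared, TMM factors, equal totals and leaving out young rTreg replicate 3 or 4, young kTreg replicate 1, old rTreg replicate 3 or old kTreg replicate 2 or 4 (adjusted p up to 0.102 with limma). The second was lost in 7 of 46, among them leaving out young rTreg replicate 3, young aTreg replicate 4 or old rTreg replicate 3 (adjusted p up to 0.108 with limma). In the kTreg against rTreg interaction 22 of the 28 proliferation genes were called, all on the same side as Pkm (median -2.25). In the aTreg against rTreg interaction 1 was called, with 27 of 28 below 0 (median -1.12) and 20 at an unadjusted p under 0.05 by limma. The part of the proliferation genes was not tested. The count of genes was 2 without young kTreg replicate 4 (Eno3 added), old rTreg replicate 2 (Pdk1 added) or old rTreg replicate 3 (Egln3 and Ldhb in place of Pkm), and 3 without young rTreg replicate 2 (Pdk3 and Pgam1 added).

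Further genes of these pathways were taken from lists written by hand, and their called genes are read beside the shares of all genes tested: 9.37% higher and 6.09% lower in kTreg against rTreg, 4.13% and 3.26% in kTreg against aTreg, 5.23% and 2.78% in aTreg against rTreg cells, and with age 4.12% and 1.71% in rTreg, 1.85% and 0.86% in aTreg and 1.02% and 0.235% in kTreg cells. For these lists it was not examined whether a gene passed the filter only through the group where it was higher. Calls with large standard errors, as for Me1, Ldhd, Ak4, Car12 and Epas1, are therefore given as values and not as support. Of 10 genes of the pentose phosphate pathway, 0 were called by limma in the 6 comparisons, with 1 to 4 in each at an unadjusted p under 0.05. Of 17 genes of the tricarboxylic acid cycle, Idh2 (mitochondrial isocitrate dehydrogenase) was the only one called in these comparisons, lower in kTreg than in rTreg cells (-0.90 ± 0.17, limma adjusted p = 0.000419, 8 of 8 mice).

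Of 20 other genes of glycolysis and glucose handling, Slc2a8 (a glucose transporter), Galm (galactose mutarotase) and Bpgm (bisphosphoglycerate mutase) were called higher in kTreg than in rTreg cells (0.70, 0.63 and 0.68) and in aTreg than in rTreg cells (0.59, 0.73 and 0.66), 15% of the list each time. With age, Slc2a8 and Hk3 were higher in rTreg cells and Bpgm and Gpd2 in aTreg cells, 10% of the list each time. Slc2a8 had 0.83 ± 0.22, Bpgm 1.62 ± 0.27 and Gpd2, mitochondrial glycerol phosphate dehydrogenase, 1.01 ± 0.26. Hk3, a hexokinase known from myeloid cells, had 538 to 738 normalized reads in old and 17.1 to 59.8 in young rTreg cells (4.63 ± 1.09), in the libraries with the highest macrophage and monocyte marker sums among rTreg cells. Gpd2 was also called in the interaction of age with aTreg against rTreg cells (1.75 ± 0.37, limma adjusted p = 0.0198). Of 11 other pyruvate genes, Me2 (mitochondrial malic enzyme) was lower in kTreg (-0.61 ± 0.10) and in aTreg (-0.59 ± 0.10) than in rTreg cells. Me1 (cytosolic malic enzyme) was called higher in kTreg than in rTreg cells (2.55 ± 0.76) and Ldhd (D-lactate dehydrogenase) lower (-2.98 ± 0.94).

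Of 11 other genes of the HIF pathway, 2 that encode relatives of the members were called. Arnt2, a relative of Arnt, had 8.03 to 66.5 normalized reads in young and 147 to 305 in old rTreg cells, against 653 to 1107 in young and 932 to 1330 in old kTreg cells, without overlap (3.80 ± 0.36, limma adjusted p = 9.4e-08). It was also higher in kTreg than in aTreg cells (1.53 ± 0.36), in aTreg than in rTreg cells (2.27 ± 0.36) and in old than in young rTreg cells (3.41 ± 0.52), and it was called in the interaction of age with kTreg against rTreg cells (-2.82 ± 0.73, limma adjusted p = 0.0356). Epas1, which encodes HIF-2α, had at most 37.9 normalized reads in any young library and 102 to 188 in old aTreg and 56.8 to 127 in old kTreg cells. It was called higher with age in aTreg cells (4.08 ± 1.00, limma adjusted p = 0.0233) and higher in kTreg and in aTreg than in rTreg cells (2.61 ± 0.71 both).

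Of 22 other HIF targets, Ndrg1 (a stress response gene) and Cxcr4 (a chemokine receptor) were higher in kTreg than in aTreg cells (1.49 ± 0.17 and 0.71 ± 0.20), and Ak4 and Fam162a were lower (-2.27 ± 0.64 and -0.64 ± 0.16), 9.09% of the list each way. Against rTreg cells 5 were higher in kTreg cells, or 22.7%, and 2 lower. The 5 were Bhlhe40, a transcriptional repressor (1.48 ± 0.29), Cxcr4 (1.07 ± 0.20), Ero1a, an oxidase of the endoplasmic reticulum (0.86 ± 0.13), Nt5e, the ectonucleotidase CD73 (0.75 ± 0.15), and Mxi1, a MYC antagonist (0.61 ± 0.22). The 2 were Car12, a carbonic anhydrase (-2.22 ± 0.68), and Ankrd37 (-0.64 ± 0.21). In aTreg against rTreg cells Bhlhe40 (1.66), Ero1a (0.87) and Nt5e (0.82) were higher and Ndrg1 was lower (-1.16). With age, Bhlhe40 was called in all 3 subsets (1.63 ± 0.41 in rTreg, 1.77 ± 0.41 in aTreg and 1.88 ± 0.41 in kTreg cells) and Ero1a in aTreg cells (1.26 ± 0.18). The interaction was called for Ero1a in kTreg against aTreg (-1.35 ± 0.25) and for Ndrg1 in kTreg against rTreg cells (-1.29 ± 0.35).

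Of 18 genes upstream of glycolysis in T cells, Myc, a transcription factor known to raise glycolytic genes, was lower in kTreg than in aTreg (-0.95 ± 0.15) and rTreg cells (-1.30 ± 0.15), in 8 of 8 mice. Pik3ip1, an inhibitor of PI3 kinase, was lower in the same comparisons (-0.90 ± 0.11 and -1.13 ± 0.11), and Foxo1, a transcription factor that AKT restrains, was lower in kTreg than in rTreg cells (-0.75 ± 0.07). Rptor, a subunit of mTORC1 (0.80 ± 0.26), and Arrdc4, a relative of the glucose uptake inhibitor TXNIP (0.99 ± 0.20), were higher in kTreg than in rTreg cells, and Arrdc4 also in aTreg than in rTreg cells (0.84 ± 0.20). Foxp3, the transcription factor that defines Treg cells, was higher in kTreg than in aTreg cells (0.88 ± 0.21), where old aTreg replicate 2 held the lowest value. With age, Akt1 (0.67 ± 0.10) and Arrdc4 (1.54 ± 0.28) were higher in rTreg and Arrdc4 (1.83 ± 0.28) in kTreg cells, and Akt1 was called in the interaction of age with kTreg against rTreg cells (-0.77 ± 0.14).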

How the data were processed

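The authors prepared cDNA with SMART-Seq v4, aligned reads to GRCm39 with HISAT2 2.2.1, used SAMtools 1.13, counted reads per gene with HTSeq 1.99.2 and scaled them with DESeq2 1.44.0. The deposited values are a normalized signal, the reads of a gene divided by a size factor of the library. The strand setting and the handling of multi-mapped reads are not given in the sources used here. Reads behind the values were recovered from the steps between them, and 100% of the values were whole within 0.001 reads. All columns were mapped to a sample.

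The 39 genes and the other lists were chosen with earlier results of these data known. Gene names and positions came from GENCODE M39, which held 17353 of the 17464 identifiers. Genes with 10 or more normalized reads in 4 or more libraries (16630) were fitted with limma-trend (limma 3.58.1, R 4.3.3) on log2(value + 1), with a mean for each of the 6 groups, and the ages were weighted equally between subsets. Fold changes are on the log2(value + 1) scale, which shrinks ratios of low values but weighs a single very low library heavily. For Eno3 in kTreg against rTreg cells limma gave -2.70, and edgeR and DESeq2 gave -2.20. Calls required a fold above 1.5 and an adjusted p (Benjamini-Hochberg, over all genes tested) below 0.05. By the series' design all 3 subsets came from the same mice. The replicate number shared in the labels was taken as the mouse (consensus correlation 0.062 within a number), and counts of mice and sign-flip tests rest on that. Members called in any comparison are named with their statistics, and the value of every library is given for those of smallest p. Of the other lists of these pathways the called genes are named, at most 6 per list and comparison. For the lists of proliferation genes and cell markers, counts or sums are given. Isozyme ratios used log2((a + 1)/(b + 1)) and an exact sign-flip permutation test.

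Simulated data were used to test the fits. With 200 of 16630 genes changed by a fold of 2 between kTreg and aTreg cells limma recovered 87% of them, for old against young kTreg cells 59%, and for the interaction of age with kTreg against aTreg 12.5%. The simulation gave every gene the same dispersion (spread between libraries), independent libraries and no outlying library, so these shares may not hold for the real data. The alternatives were other pseudocounts, filters and scalings, the mouse as a block, only the groups compared, leaving out a library or a mouse, edgeR 4.0.16 and DESeq2 1.42.0 on the recovered reads. edgeR called 727 genes higher and 484 lower in kTreg than in aTreg cells, limma 687 and 542. Ratios and plots were made in Python 3.11.15 (scipy 1.17.1, matplotlib 3.10.9). SD values are the spread between libraries of a group or, for ratios, between mice, since PCR copies are not independent molecules. SE values are limma standard errors, moderated across genes, from a residual spread shared by the 6 groups. An outlying library therefore widens them in every comparison of that gene, also in those without its group.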

Additional observations from a re-analysis of the deposited data

Results flagged for a closer look

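Within the groups of 4, 11 genes in 6 groups, or 66 groups, were checked for a library far from the others, and 2 were found, where chance gives about 1 in 20 groups. Ldha had 49950 normalized reads in old rTreg replicate 3, against 36880 to 38000 in the other 3 libraries. Vegfa had 17 normalized reads in young kTreg replicate 1, against 0 to 0.956 in the other 3.

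The subset difference of Pkm differed between the ages in the interaction test of limma. For kTreg against rTreg cells the log2 fold change was 0.17 in young and -0.42 in old mice, a difference of -0.587 (adjusted p = 0.0185). For aTreg against rTreg cells it was 0.25 and -0.40, a difference of -0.647 (adjusted p = 0.0198). Both share the rTreg libraries. The first call was lost in 14 of 46 alternatives and the second in 7 of 46, both without young rTreg replicate 3.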

How the results depend on the processing

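The 13 fold changes of called members kept their direction under all alternatives run. The median over all genes changed sign for age in rTreg cells, from -0.076 to 0.0023 with edgeR and 0.026 with DESeq2, and for kTreg against rTreg cells, from -0.010 to 0.0049 with equal totals and 5e-06 with DESeq2. For kTreg against aTreg (1 gene called), the count was 3 with only the groups compared in the model, 4 by unadjusted p, 6 with no fold threshold and 2 without young kTreg replicate 4 and old aTreg replicate 2, an alternative chosen after seeing the data. For kTreg against rTreg (7) it was 13 with no fold threshold. For aTreg against rTreg (1) it was 3 with only the groups compared, by unadjusted p or with no fold threshold, 2 with edgeR or DESeq2 (Eno3 added), and 4 without those 2 libraries. For age in rTreg cells (2) it was 0 with only the groups compared, 4 by unadjusted p, 6 with no fold threshold and 1 with edgeR. For age in aTreg cells (0) it was 2 with only the groups compared, with no fold threshold or without the 2 libraries, 3 by unadjusted p or with DESeq2 and 1 with edgeR. For age in kTreg cells (0) it was 1 by unadjusted p, with no fold threshold or without the 2 libraries. For the interaction (1) it was 11 by unadjusted p and 2 without the 2 libraries. The cause was not tested, except that a looser threshold passes more genes by construction.

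With the mouse as a replicate block, fixed or random, the aTreg against rTreg count was 2 (Vegfa added), and the block changed no other count. Without pairing of the libraries by mouse, 11 isozyme ratios passed in place of 9. Leaving out 1 library or mouse gave 1 to 3 genes for kTreg against aTreg, 5 to 9 for kTreg against rTreg, 0 to 3 for aTreg against rTreg, 0 to 3, 0 to 2 and 0 to 1 for age in rTreg, aTreg and kTreg cells and 0 to 3 for the interaction. With 7 mice the sign-flip test cannot pass the threshold, so the 0 ratios found then say nothing of stability. With libraries set to equal totals, the interaction of age with kTreg against aTreg over all genes had 7 genes higher and 7 lower, against 7 and 19, and the call of Pkm in the kTreg against rTreg interaction was lost, as it was with TMM factors. The self-test recovered few 2-fold changes in the interaction, so a gene not called there may still differ.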
